A study of Mus musculus with 8 samples.

Results

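The semaphorin, plexin and neuropilin families are represented here by 10 of the 14457 genes in the table, read in the neonatal mouse femur. They are the ligands Sema3a, Sema4c, Sema4d, Sema5a and Sema6d, the plexin receptors Plxna1, Plxnb2 and Plxnd1, and the neuropilin co-receptors Nrp1 and Nrp2. They were picked by symbol because several of them were lower in CKO than in control, so their difference between genotypes is given as a description with no test. The RNA came from cortical shafts of femurs at postnatal day 7. In the 4 CKO libraries both Slc26a2 alleles were floxed (fl/fl) and in the 4 control libraries 1 was (fl/+). Slc26a2 encodes a sulfate transporter. Every library carried Col2.3kb-Cre, in which a piece of the collagen I alpha 1 promoter drives Cre in osteoblasts, so no library stands for a mouse without Cre or without a floxed allele. The labels do not say whether each library is a separate mouse, and p-values therefore measure only the spread between these samples, which may be technical.

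Semaphorins are secreted or membrane-bound cues that steer growing axons and also act on vessels, immune cells and bone cells. They bind plexins, whose cytoplasmic part acts on small GTPases, and secreted class 3 semaphorins mostly need a neuropilin to reach a plexin. In bone, Sema3a is known to protect bone mass by restraining osteoclasts and favouring osteoblasts, and Sema4d released by osteoclasts is known to restrain osteoblasts through plexin-B1. Sema5a binds sulfated glycosaminoglycan chains, which switch its effect on axons, and neuropilins also bind vascular endothelial growth factor.

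Levels are in FPKM, fragments scaled to transcript length and library size. They summed to 431612 to 598419 in CKO and to 352283 to 379669 in control, and 4 Y-linked genes were listed at 0 in CKO replicates 1 to 3 and control replicate 1 and above 0 in CKO replicate 4 and control replicates 2 to 4. The lists of marker genes named below were summed per library. Osteoblast markers summed to 11235 to 35162 FPKM in CKO and to 35577 to 44439 FPKM in control, neutrophil markers to 6038 to 27276 FPKM in CKO and to 799 to 3792 FPKM in control, and skeletal muscle markers ranged from 131 to 7423 FPKM in CKO and from 45.3 to 2797 FPKM in control. Erythroid markers summed to 18011 to 70814 FPKM in CKO and to 3852 to 13057 FPKM in control. Their sum was above the osteoblast sum in every CKO library and below it in every control library. Osteoblast markers were thus high in every library, with marrow and muscle markers beside them. Slc26a2 was at 2.93, 2.08, 0.706 and 0.8289 FPKM in CKO, against 4.37, 7.49, 4.85 and 4.85 FPKM in control (p = 0.0286 by an exact permutation test, two-sided, with 70 possible assignments and no smaller p attainable).

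Control libraries alone give the order of the levels, although their values are also part of the contrast on which the members were chosen. Nrp2 was highest of the 10 at 89.2 ± 4.61 FPKM (SD, n = 4), above 97.1% of the genes in the table, followed by Plxnd1 at 72.1 ± 24.9 FPKM and Sema4d at 52.1 ± 9.78 FPKM. Plxnb2 averaged 29.1 FPKM, Sema6d 26.1 FPKM, Sema5a 20.03 FPKM, Nrp1 13.4 FPKM, Sema4c 11.9 FPKM and Plxna1 10.4 FPKM. Sema3a was lowest at 4.68 ± 1.23 FPKM, above 40.2% of the genes. In this order the control ranges of neighbours overlapped except between Sema4d and Plxnb2 and between Plxna1 and Sema3a. Among the 30 family genes in the table, Sema7a, at 34.2 FPKM, was the only one outside the 10 that stood among the 7 highest.

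All 10 members had a log2 fold change of CKO over control below 0 on the log2(FPKM + 1) scale, where 48.9% of the 12748 tested genes did. The 10 fold changes ran from -1.31 for Sema5a to -0.34 for Nrp1 with a median of -0.82, beside a median of 0.01 over all tested genes. Every CKO library lay below every control library for 4 members, Sema5a, Sema6d, Plxna1 and Nrp2, where 6.00% of tested genes showed this. As a description of the fit and not a test of the members, limma's adjusted p was under 0.05 for the same 4, beside 0.651% of tested genes lower in CKO and 3.88% higher. That count was 0 under median-of-ratios scaling, equal FPKM totals, removal of the trend against transcript length, a covariate for marrow or for Y-linked expression, the libraries without Y-linked RNA and 6 of the 8 fits with a library left out, and 1 with no filter or a pseudocount of 0.01. The rule chose members on this contrast, so nothing is read from these shares. In bulk tissue, fewer cells of a type and less RNA per cell cannot be told apart.

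**Figure D1:**
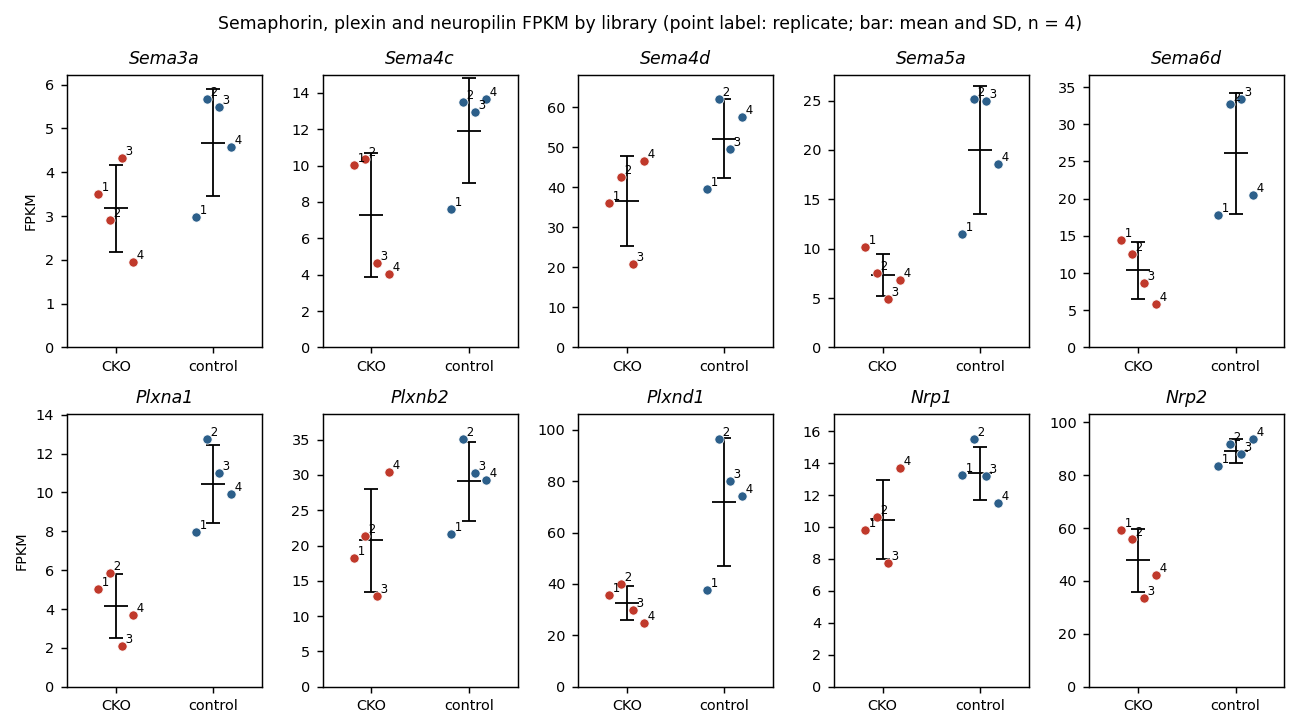
FPKM of the 10 members in each library, CKO left of control, with the replicate number beside each point and the mean and SD (n = 4) as a bar. Sema5a, Sema6d, Plxna1 and Nrp2 separate the genotypes, and control replicate 1 is the lowest control for 9 of the 10.

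Among the ligands, Sema5a, a membrane semaphorin with thrombospondin repeats, had 10.1, 7.49, 4.94 and 6.80 FPKM in CKO replicates 1 to 4, against 11.5, 25.1, 24.98 and 18.5 FPKM in control replicates 1 to 4. Control replicate 1 was close to CKO replicate 1, and the other controls were well above every CKO library. The mean was 63.3% lower in CKO (7.34 ± 2.15 FPKM in CKO and 20.03 ± 6.48 FPKM in control, SD, n = 4 each), and the log2 fold change was -1.31 (SE 0.29). Sema5a (ENSMUSG00000022231) lies on chromosome 15 at 32244810 to 32696341 of GRCm38, on the plus strand.

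Sema6d, a transmembrane ligand of plexin-A1, had 14.4, 12.5, 8.63 and 5.87 FPKM in CKO, against 17.8, 32.8, 33.3 and 20.5 FPKM in control. The groups did not overlap, and CKO replicate 4 was the lowest library. The mean was 60.3% lower in CKO, with a log2 fold change of -1.27 (SE 0.31.) Sema6d (ENSMUSG00000027200) lies on chromosome 2 at 124089969 to 124667770, on the plus strand.

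Sema4c, a transmembrane ligand of plexin-B2, had 10.03, 10.4, 4.63 and 4.03 FPKM in CKO, against 7.63, 13.5, 12.9 and 13.6 FPKM in control. CKO replicates 1 and 2 lay above control replicate 1, so the groups overlapped. The mean was 39.0% lower in CKO, with a log2 fold change of -0.71 (SE 0.32.) Its exons share 334 bases with an antisense transcript, and the strand setting of the counting is not given in the sources used here.

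Sema4d, the osteoclast-derived ligand of plexin-B1, was the most abundant ligand of the 10, with 36.1, 42.5, 20.9 and 46.4 FPKM in CKO, against 39.6, 61.9, 49.5 and 57.4 FPKM in control. CKO replicates 2 and 4 exceeded control replicate 1, and CKO replicate 3 was far below the rest. The log2 fold change was -0.54 (SE 0.27.) The 8 osteoclast markers, with none called in either direction, summed to 4456 to 5082 FPKM in CKO and to 4103 to 6651 FPKM in control, and no defining marker was listed at 0. Acp5 and Ctsk made up most of these sums. Among all tested genes 4.53% were called. By limma 4 of the 8 had an unadjusted p under 0.05, as did 3228 of all 12748 tested genes. Of the 8 markers 6 had a log2 fold change below 0 (median -0.50), among them Mmp9 at -1.002, Ocstamp at -0.74, Oscar at -0.64 and Calcr at -0.58. Their part in the Sema4d values was not tested.

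Sema3a, the secreted bone-protective semaphorin, had 3.495, 2.91, 4.32 and 1.96 FPKM in CKO, against 2.98, 5.66, 5.48 and 4.58 FPKM in control. The groups overlapped, with control replicate 1 below CKO replicates 1 and 3. The mean was 32.2% lower in CKO (3.17 ± 0.993 FPKM in CKO and 4.68 ± 1.23 FPKM in control, SD, n = 4 each), with a log2 fold change of -0.45 (SE 0.25.) The 10 osteoblast markers, with none called, summed lower in every CKO library than in every control library. The gap was narrow, with 35162 FPKM in CKO replicate 4 and 35577 FPKM in control replicate 2. As a mean of log2(FPKM + 1) the groups overlapped, at 9.05 in CKO replicate 4 and 9.03 in control replicate 1. Among all tested genes 4.53% were called. By limma 5 of the 10 markers had an unadjusted p under 0.05, as did 3228 of all 12748 tested genes. Of the 10 markers 9 had a log2 fold change below 0 and 1 above. Their part in the Sema3a values was not tested. CKO replicate 3, the lowest of all 8 in these markers, was the highest CKO library for Sema3a.

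Of the receptors, Plxna1, which signals with neuropilins for class 3 semaphorins and binds Sema6d directly, had 5.05, 5.86, 2.08 and 3.69 FPKM in CKO, against 7.99, 12.8, 11.0 and 9.93 FPKM in control. The groups did not overlap. The mean was 60.0% lower in CKO (4.17 ± 1.66 FPKM in CKO and 10.4 ± 2.001 FPKM in control, SD, n = 4 each), with a log2 fold change of -1.19 (SE 0.27.) Its exons share 970 bases with an antisense gene. Plxna1 (ENSMUSG00000030084) lies on chromosome 6 at 89316314 to 89362620, on the minus strand.

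Plxnd1, the receptor through which Sema3e acts on endothelial cells, had 35.7, 40.2, 29.9 and 24.9 FPKM in CKO, against 37.5, 96.6, 80.0 and 74.3 FPKM in control. Control replicate 1 lay among the CKO libraries, while the other controls were all above them. The mean was 54.7% lower in CKO, with a log2 fold change of -1.06 (SE 0.30.) The log2 fold change was -1.34 without control replicate 1, -0.90 without control replicate 2 and -0.097 within the libraries without Y-linked RNA. Its ligand Sema3e was below the filter, at 0.103 ± 0.0666 FPKM in CKO and 0.285 ± 0.0587 FPKM in control (SD, n = 4 each).

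Plxnb2, a receptor of class 4 semaphorins, had 18.2, 21.4, 12.9 and 30.4 FPKM in CKO, against 21.7, 35.2, 30.2 and 29.3 FPKM in control. CKO replicate 4 stood among the controls, and CKO replicate 3 was lowest. The log2 fold change was -0.51 (SE 0.27.)

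The 2 neuropilins are given in turn, and no test of a difference between them was made. Nrp2, the co-receptor of Sema3f and of vascular endothelial growth factor C, had 59.3, 55.9, 33.5 and 42.3 FPKM in CKO, against 83.4, 91.9, 87.9 and 93.8 FPKM in control. The 4 controls lay close together and above every CKO library. The mean was 46.5% lower in CKO (47.7 ± 12.0 FPKM in CKO and 89.2 ± 4.61 FPKM in control, SD, n = 4 each), with a log2 fold change of -0.92 (SE 0.22.) Nrp2 (ENSMUSG00000025969) lies on chromosome 1 at 62703285 to 62818695, on the plus strand.

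Nrp1, the co-receptor of Sema3a and of vascular endothelial growth factor A, had 9.79, 10.6, 7.77 and 13.7 FPKM in CKO, against 13.3, 15.5, 13.2 and 11.5 FPKM in control. CKO replicate 4 was above 3 of the controls. The log2 fold change was -0.34 (SE 0.21), the smallest of the 10. Endothelial cells express both neuropilins, and 10 endothelial markers, with none called and none at 0, summed to 244 to 377 FPKM in CKO and to 277 to 342 FPKM in control. Of these markers 7 had a log2 fold change below 0 (median -0.51). In 4, Pecam1, Cdh5, Kdr and Flt1, every CKO library was below every control library, as in 6.00% of tested genes. Among all tested genes 4.53% were called. By limma 5 of the 10 markers had an unadjusted p under 0.05, as did 3228 of all 12748 tested genes. The highest CKO sum held 243 FPKM of Egfl7. Their part in the receptor values was not tested.

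The windows just upstream of the transcription start are shown for the members whose groups did not overlap and that have an entry in RefSeq's promoter table (build GRCm38.p6), and for Sema3a, whose role in bone is best known. Each is the 250 bases before a start, on the plus strand. Nrp2 is at chr1:62703067-62703316, Sema5a at chr15:32244563-32244812, Sema6d at chr2:124089719-124089968 and Sema3a at chr5:13396534-13396783. Capitals mark every match, on either strand, to the RUNX core TGTGGT, the TEAD core GGAATG, the AP-1 site TGANTCA or the GC box GGGCGG, which SP and KLF factors bind.
Nrp2: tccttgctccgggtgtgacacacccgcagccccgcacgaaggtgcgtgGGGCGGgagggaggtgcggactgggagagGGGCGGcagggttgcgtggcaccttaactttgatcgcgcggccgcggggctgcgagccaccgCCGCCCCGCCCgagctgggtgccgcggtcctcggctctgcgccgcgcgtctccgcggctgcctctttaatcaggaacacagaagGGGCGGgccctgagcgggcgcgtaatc
Sema5a: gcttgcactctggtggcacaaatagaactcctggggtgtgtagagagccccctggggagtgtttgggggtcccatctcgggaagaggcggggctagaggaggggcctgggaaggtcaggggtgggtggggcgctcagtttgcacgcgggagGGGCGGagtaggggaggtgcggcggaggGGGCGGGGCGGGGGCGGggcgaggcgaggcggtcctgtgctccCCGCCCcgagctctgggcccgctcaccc
Sema6d: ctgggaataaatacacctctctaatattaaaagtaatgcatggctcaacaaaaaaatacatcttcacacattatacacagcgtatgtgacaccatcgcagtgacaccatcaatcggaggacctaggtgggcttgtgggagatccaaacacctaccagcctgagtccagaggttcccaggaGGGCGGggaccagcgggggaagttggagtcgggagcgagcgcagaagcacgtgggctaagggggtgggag
Sema3a: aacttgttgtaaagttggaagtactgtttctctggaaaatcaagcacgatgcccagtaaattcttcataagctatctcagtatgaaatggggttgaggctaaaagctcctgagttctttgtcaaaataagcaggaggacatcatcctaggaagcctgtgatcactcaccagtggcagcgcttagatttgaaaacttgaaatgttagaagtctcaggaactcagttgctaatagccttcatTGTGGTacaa
The windows of Nrp2 and Sema5a hold 5 GC boxes each, some sharing a base, the printed window of Sema6d holds 1, and in these 3 windows no match to the other motifs was found. RefSeq gives Sema6d a second start, whose window, not printed, holds 1 RUNX core and no GC box. The Sema3a window holds no GC box and 1 RUNX core, which starts 10 bases before the RefSeq start used. That start lies within the gene, 271370 bases from the gene start in GENCODE M21. The starts used for Nrp2, Sema5a and Sema6d lie 32, 3 and 0 bases from theirs. Of all 32851 windows of this length, 32.7% hold a GC box, 14.0% a RUNX core, 12.6% a TEAD core and 6.75% an AP-1 site. A match describes the letters and is not evidence of binding.

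Across libraries most pairs of members varied in common. Control replicate 1 lay on average between CKO and the other controls, and above every CKO library for Sema5a, Sema6d, Plxna1 and Nrp2. Control replicate 1 was the lowest control for 9 of the 10 members, Nrp1 being the exception, and over the 10 its mean difference from the control mean was -0.42 on the log2 scale. For CKO replicates 1 to 4 this difference was -0.61, -0.60, -1.19 and -0.93. CKO replicate 3 was the lowest CKO library for 6 members and CKO replicate 4 for the other 4. After each genotype's mean was removed, 37 of the 45 pairs of members had a Pearson correlation above 0 over the 8 libraries, with a median of 0.58. The closest pair was Sema4d with Plxnb2 at 0.93, and the most opposed was Sema3a with Nrp1 at -0.53. These points share library and scaling, no like value was taken for pairs of other genes, and the values are a description. After the same centring Ece1, which is outside the family, had a correlation of 0.993 with the mean of the members.

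**Figure D2:**
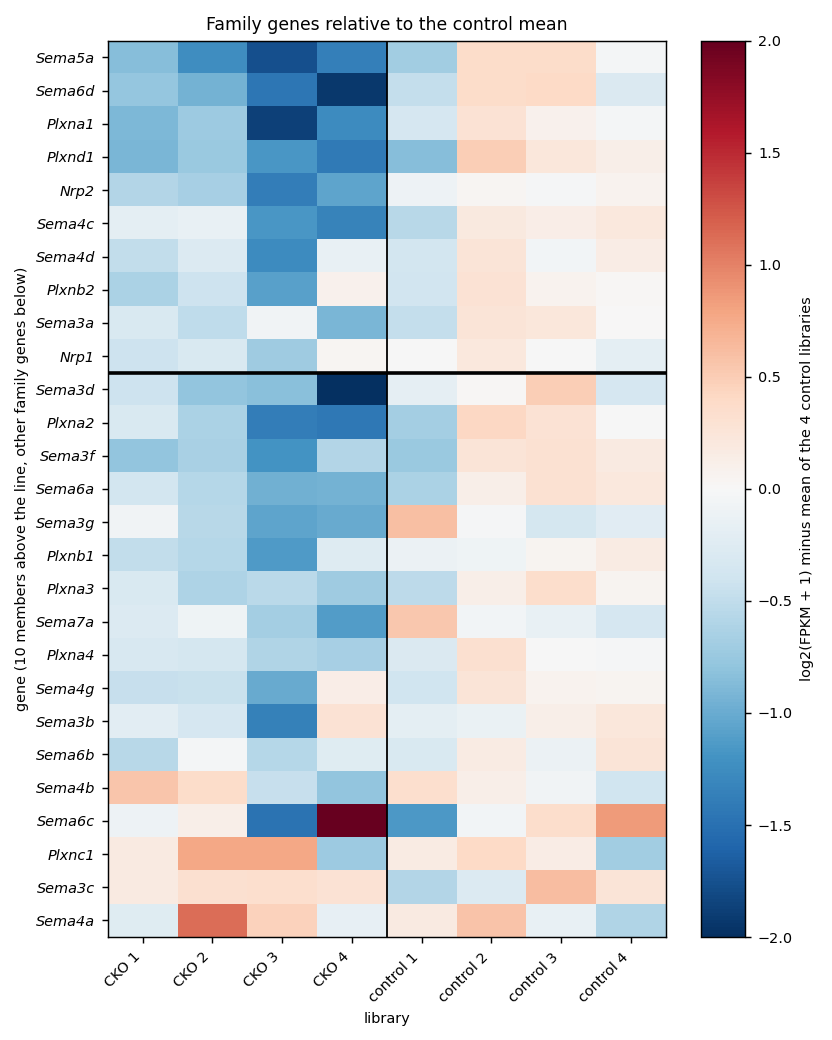
Difference of log2(FPKM + 1) from the mean of the 4 control libraries, for the 10 members above the line and the other 17 tested family genes below it, with the CKO libraries left of the control libraries. The members are mostly blue in the CKO columns and in the column of control replicate 1, and Sema6c, Sema4a, Sema3c and Plxnc1 do not follow them.

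Because the Y-linked genes split the libraries across the genotypes, each member was also read within the classes. Among the libraries without Y-linked RNA, CKO replicates 1 to 3 all lay below control replicate 1 for 6 members, Sema5a, Sema6d, Plxna1, Plxnb2, Nrp1 and Nrp2. Plxnd1 averaged 35.3 FPKM in those CKO libraries against 37.5 FPKM in the single control, a difference far smaller than over all libraries. Sema3a and Sema4c averaged 3.58 and 8.35 FPKM in those CKO libraries, against 2.98 and 7.63 FPKM in the single control, so the direction turned, and their log2 fold changes there were 0.19 and 0.05. Nrp2 averaged 49.6 FPKM in those CKO libraries, against 83.4 FPKM in the single control. Among the libraries with Y-linked RNA, the single CKO library was below the 3 controls for 8 members and not for Plxnb2 and Nrp1. In each class 1 of the genotypes has a single library. No share over all tested genes was taken for these counts, and the members were chosen on this contrast. Nothing is therefore read from the counts. With Y-linked expression as a covariate, the log2 fold changes ran from -1.20 for Sema6d, -1.01 for Plxna1, -0.91 for Nrp2 and -0.90 for Sema5a to -0.067 for Plxnb2.

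The fold changes also ran with transcript length. The longest protein-coding transcripts of the members measured 3597 to 10809 bases, all 10 above the median of 3086 bases over 12086 tested genes, and 7 in the longest quartile. Over all tested genes the Spearman correlation of length with log2 fold change was -0.63, across genes, which are not independent replicates. The 4677 genes within the members' range of length had a median log2 fold change of -0.26, and 12.1% of them had all CKO libraries below all controls. Each of the 10 members was lower than that median. The rule chose them on this contrast, so nothing is read from their place below it. With the trend against length removed, the median of the members was -0.59, beside -0.02 over all genes, and Sema6d had a log2 fold change of -0.95, Sema5a -0.85, Plxna1 -0.77, Plxnd1 -0.72 and Nrp2 -0.59. The values for Sema3a and Plxnb2 were then -0.15 and -0.19.

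**Figure D3:**
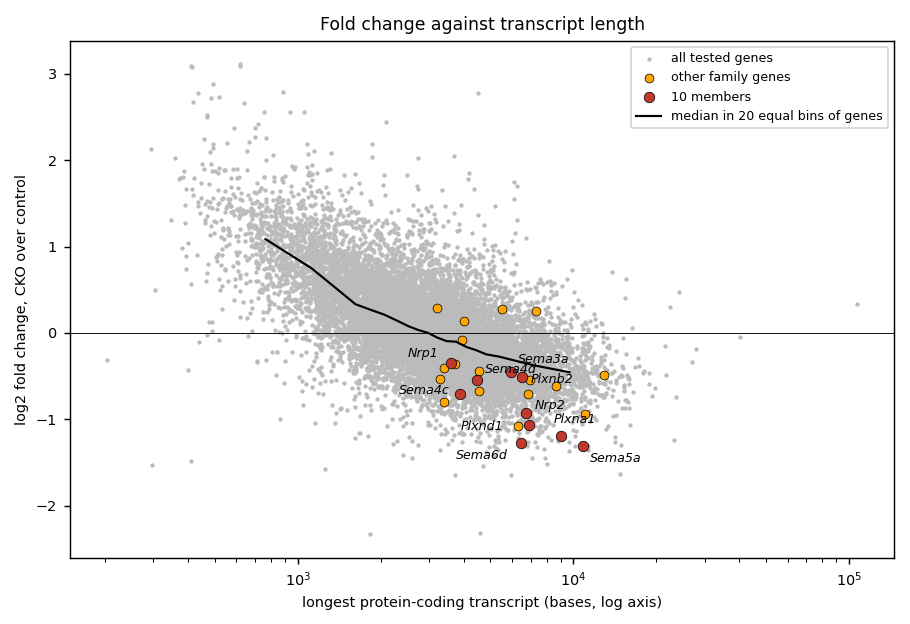
Log2 fold change of CKO over control against the longest protein-coding transcript (bases, log axis) for all tested genes (grey), the 10 members (red) and the other family genes (orange), with the median in 20 bins of equal gene number (line). All 10 members, which were chosen on this contrast, lie below the line, which falls with length.

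With equal FPKM totals, where the median of all genes was itself at -0.37, the member median was -1.25. Covariates for marrow expression and for Y-linked expression gave member medians of -0.67 and -0.63, and all 10 log2 fold changes were below 0 under both. The marrow covariate, a mean of log2(FPKM + 1), was 7.37 to 7.64 in CKO and 5.03 to 6.77 in control. Because it did not overlap between the genotypes, marrow and genotype cannot be told apart in that fit. In the authors' deposited table the log2 fold change was below 0 for all 10, from -1.31 for Sema5a to -0.28 for Nrp1. The members were chosen on this contrast in the same libraries, so nothing is read from that sign.

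**Figure D4:**
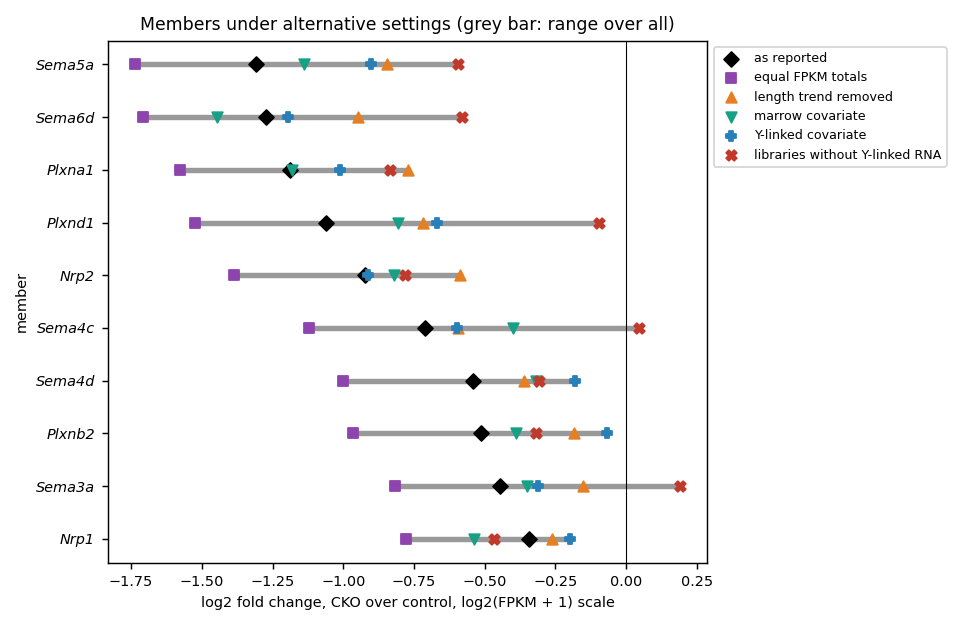
Log2 fold change of CKO over control for each member as reported (diamond) and under 5 other settings, with the range over all 21 alternatives as a grey bar. The bars of Sema3a and Sema4c cross 0, and the other 8 stay below it.

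Of the other 20 family genes in the table, 17 were tested, and by limma 0 passed the adjusted threshold in either direction, as 4.53% of all tested genes did. At an unadjusted p under 0.05 there were 8 of the 17, and 3228 of all 12748. Their median log2 fold change was -0.48, with 13 below 0 and 4 above. In 3 of them, Sema3d, Plxna4 and Plxnb1, every CKO library was below every control library, as in 6.00% of all tested genes. The share was 12.1% of genes in the members' range of length. Plxna4, at 12877 bases, and some others of the 17 lie outside that range. Plxna4 and Plxnb1 were chosen after their values were seen. Sema3d, a secreted semaphorin, had 10.05, 7.57, 7.32 and 2.10 FPKM in CKO, against 12.1, 14.0, 19.8 and 10.7 FPKM in control (log2 fold change -1.07, limma adjusted p = 0.111). Plxnb1, the receptor of Sema4d on osteoblasts, averaged 2.65 ± 0.865 FPKM in CKO and 4.46 ± 0.495 FPKM in control (SD, n = 4 each; log2 fold change -0.61, limma adjusted p = 0.123).

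The 5 most abundant of these genes, Sema3d included, all had a log2 fold change below 0, and none passed. Sema7a, a membrane-anchored ligand of integrins, had 27.5, 31.3, 20.5 and 14.8 FPKM in CKO, against 48.8, 32.0, 29.98 and 26.2 FPKM in control (limma adjusted p = 0.256). Plxna2, a receptor of class 3 and class 6 semaphorins, averaged 6.56 ± 2.92 FPKM in CKO and 13.3 ± 4.27 FPKM in control (SD, n = 4 each; log2 fold change -0.94, limma adjusted p = 0.110). Sema3b averaged 11.9 FPKM in CKO and 14.9 FPKM in control, and Sema4b 8.63 FPKM in CKO and 8.66 FPKM in control (limma adjusted p = 0.455 and 0.898). The 95% interval of the Sema4b log2 fold change ran from -0.79 to 0.62.

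Sema6c, chosen after its values were seen, moved with muscle markers. It had 2.92, 3.60, 0.512 and 16.1 FPKM in CKO, against 0.904, 3.07, 4.36 and 6.63 FPKM in control. The 8 skeletal muscle markers summed to 1693, 2567, 131 and 7423 FPKM in the same CKO libraries and to 45.3, 159, 1083 and 2797 FPKM in the same control libraries. Within each genotype the order of the libraries was the same for Sema6c and for the markers, and the part of muscle in Sema6c was not tested.

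Of 56 listed partners of the family 52 were tested and 1 was called, beside 4.53% of all tested genes in either direction and 0.651% lower in CKO. Farp2, a guanine nucleotide exchange factor that plexin-A1 holds and releases to activate Rac when Sema3a binds, fell to 6.88, 6.12, 3.03 and 3.42 FPKM in CKO, against 12.1, 12.5, 14.9 and 10.8 FPKM in control (log2 fold change -1.27, SE 0.26, limma adjusted p = 0.0388). No CKO library reached a control library. Within the libraries without Y-linked RNA its log2 fold change was -1.11, and with the length trend removed -1.14. The call ended when control replicate 2, 3 or 4 was left out (limma adjusted p = 0.134, 0.165 and 0.111) and when CKO replicate 1, 2 or 3 was left out (limma adjusted p = 0.0577, 0.0501 and 0.0924). It also ended under median-of-ratios scaling, equal FPKM totals, the length trend removed and the marrow and Y-linked covariates (limma adjusted p = 0.0638, 0.0637, 0.113, 0.719 and 0.219), and within the libraries without Y-linked RNA (0.731).

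The other 31 of the 32 tested effectors did not pass. They include Rhoa and Cfl1, the small GTPase and the actin-severing cofilin. Rhoa averaged 114 ± 28.8 FPKM in CKO and 123 ± 8.91 FPKM in control (SD, n = 4 each; limma adjusted p = 0.721), and Cfl1 607 ± 174 FPKM in CKO and 396 ± 109 FPKM in control (SD, n = 4 each; limma adjusted p = 0.259). Arhgef11, the exchange factor bound by class B plexins, chosen after its values were seen, had a log2 fold change of -1.08 (limma adjusted p = 0.0744). In the effector list 20 genes were below 0 and 12 above, with a median of -0.23.

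None of 14 tested co-receptors and partners passed by limma, with 9 at an unadjusted p under 0.05, as were 3228 of all 12748 tested genes, and their median log2 fold change was -0.49. Itgb1, the beta subunit of the integrins that bind Sema7a, averaged 110 ± 45.1 FPKM in CKO and 129 ± 10.2 FPKM in control (SD, n = 4 each; limma adjusted p = 0.548). Tyrobp, the adaptor that links plexin-A1 to Trem2 in osteoclasts, had 153, 235, 527 and 180 FPKM in CKO, against 146, 129, 80.7 and 97.3 FPKM in control (log2 fold change 1.12, limma adjusted p = 0.102). Every CKO library was above every control library, as for 12.7% of tested genes, and its log2 fold change was -0.10 with the length trend removed. Tyrobp is also expressed by neutrophils and macrophages, and CKO replicate 3, highest for it, was highest for neutrophil markers too. Their part in Tyrobp was not tested.

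Flt1, Flt4 and Kdr, the vascular endothelial growth factor receptors that work with neuropilins, were chosen after their values were seen. All 3 had every CKO library below every control library, as 6.00% of tested genes did, with log2 fold changes of -0.70, -0.86 and -0.86 (limma adjusted p = 0.0577, 0.0666 and 0.110). Of the 6 processing enzymes, which cleave secreted semaphorins or shed membrane semaphorins, 0 passed by limma, as 4.53% of all tested genes did. An unadjusted p under 0.05 was seen in 2 of the 6, and in 3228 of all 12748. Mmp14 averaged 238 ± 127 FPKM in CKO and 246 ± 38.0 FPKM in control, and Pcsk6 32.5 ± 11.1 FPKM in CKO and 52.3 ± 18.4 FPKM in control (SD, n = 4 each; limma adjusted p = 0.795 and 0.257).

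**Figure D5:**
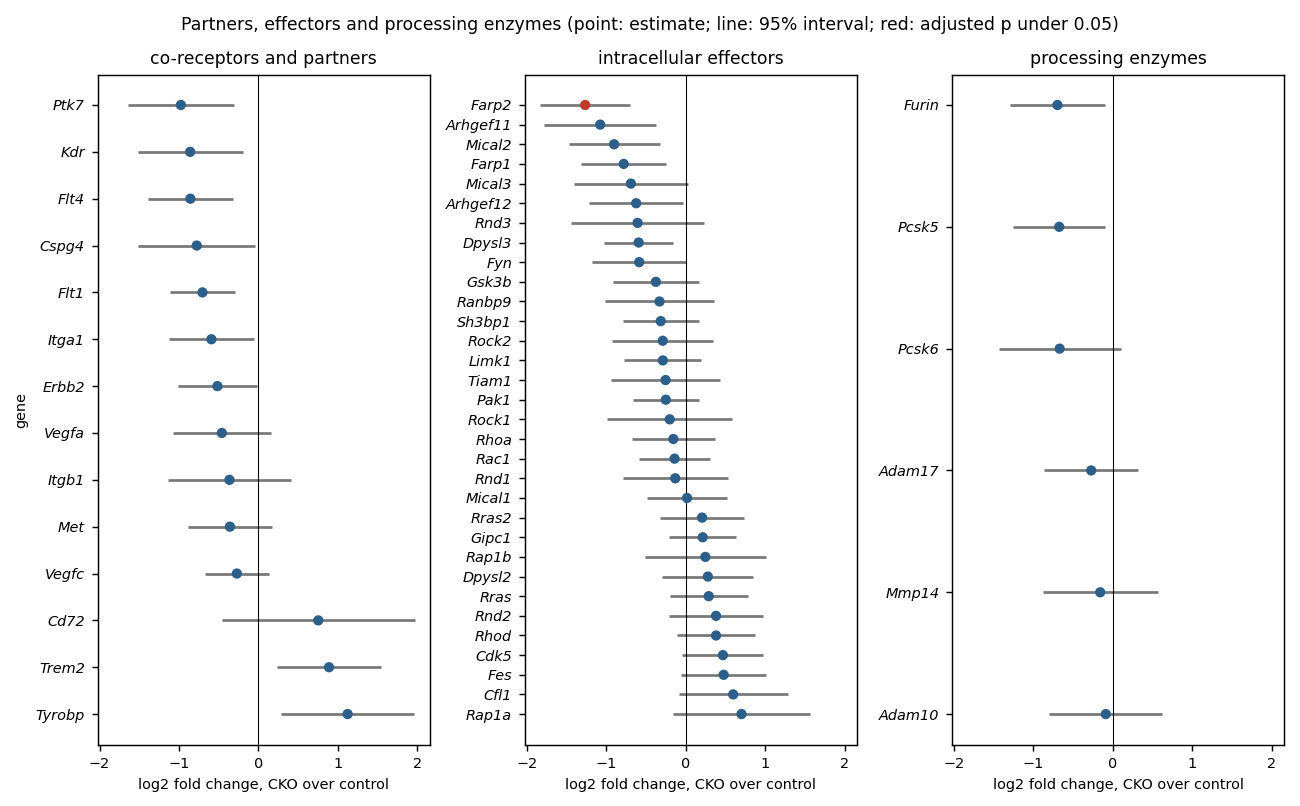
Log2 fold change of CKO over control with its 95% interval for tested co-receptors, effectors and processing enzymes. Only Farp2 (red) had an adjusted p under 0.05, and Tyrobp and Trem2 lie farthest above 0.

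Set beside other guidance families, SLIT, ROBO and netrin genes had 4 of 13 tested genes called lower by limma (Slit2, Slit3, Unc5c and Neo1), beside 0.651% of all tested genes, and their median log2 fold change was -0.58. The number called was 0 under median-of-ratios scaling, equal FPKM totals, the length trend removed, either covariate, the libraries without Y-linked RNA and 6 of the 8 fits with a library left out. By limma, ephrin and Eph genes had 0 of 11 called, beside 4.53% of all tested genes in either direction, and a median of -0.35. An unadjusted p under 0.05 was seen in 4 of the 11, and in 3228 of all 12748. No test of a difference between these families was made.

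The genes whose levels ran most like the members were sought among 8188 protein-coding genes averaging at least 5 FPKM. Over the 8 libraries the highest Pearson correlations with the mean of the z-scored members were those of Ece1 at 0.997, Agrn at 0.995, Sdk2 at 0.991, Pcnx3 at 0.989 and Creb3l2 at 0.989. Ece1 encodes an endothelin-converting enzyme and Agrn the heparan sulfate proteoglycan agrin. After centring within each genotype they were Ece1 at 0.993, Ttc28 at 0.988, Crebbp at 0.985, Creb3l2 at 0.985 and Agrn at 0.983. Ece1 averaged 12.9 FPKM in CKO and 22.5 FPKM in control, and Agrn 10.04 FPKM in CKO and 19.5 FPKM in control. These are the highest of 8188 values over 8 libraries and are given as a description.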

How the data were processed

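RNA from femoral cortical shaft was extracted with TRIzol and made into libraries with the NEBNext Ultra kit, per the labels' protocols. The submitters' processing notes list CASAVA 1.8, fastp, HISAT2 2.0.5, featureCounts 1.5.0-p3, DESeq2 1.20.0 and GRCm38, without role or order. Per the file headers, the authors deposited FPKM for each library, a p-value and a log2 fold change per gene. The direction of the authors' log2 fold change was read from its sign, which matched CKO over control mean FPKM for 13989 of 14457 genes, and the authors' deposited p-value was not used. Low FPKM values did not fall on whole-read steps (best mean distance from a whole number 0.222), so depth is unknown and no count test was run.

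A gene was tested where 4 or more of the 8 libraries reached 1 FPKM, which left 12748 genes and removed 1709. The linear model of limma 3.58.1 (R 4.3.3) compared genotypes on log2(FPKM + 1), with trended eBayes variances, no covariate, Benjamini-Hochberg adjustment over the tested genes and a threshold of 0.05. The scale understates changes of low genes. All 10 members passed the filter. The fit was tested on simulated data. GENCODE M21 (GRCm38) holds 13477 of the gene identifiers and gave coordinates and lengths, and 9 of the 10 members have an entry in RefSeq's promoter table.

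The members and lists were chosen with earlier results of these data known. Named genes were the 10 members, Slc26a2, other family genes past the threshold and the 5 with the highest mean FPKM, in each partner list up to 3 past the threshold and the 2 with the highest mean, and the 5 genes most like the members. The GC box was added after the windows were read. Alternatives were pseudocounts of 0.1 and 0.01, no filter or 5 FPKM, quantile, median-of-ratios and equal-total scaling, removal of a loess trend (span 0.4) against length, array weights, a replicate block, a covariate for Y-linked genes, another for neutrophil, B lineage and erythroid markers, and each library left out. The fit within the libraries without Y-linked RNA was added after the data were seen.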

Additional observations from a re-analysis of the deposited data

Results flagged for a closer look

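Of 46 groups of 4 libraries, 2 held a value far from the others by Dixon's criterion at the 95% level (gap over range 0.881 and 0.844), and chance flags about 1 group in 20. Sema4c was at 7.63 FPKM in control replicate 1, well below the other 3 controls. Slc26a2 was at 7.49 FPKM in control replicate 2, well above the other 3 controls.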

How the results depend on the processing

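Over all genes, limma called 578, against 381 with no filter, 358 with quantile normalization, 274 with the replicate block, 6005 with array weights, 1 within the libraries without Y-linked RNA, and 0 each with median-of-ratios scaling, equal FPKM totals, the length trend removed, the marrow covariate and the Y-linked covariate. The unadjusted p was under 0.05 for 3397, 3934, 2089, 859 and 2202 genes in those 5. Leaving out each library gave 0 to 1885 calls, with 1885 without CKO replicate 4, 815 without control replicate 1 and 0 for the other 6, where 2103 to 3234 had an unadjusted p under 0.05. Under quantile normalization 137 of the 358 were higher in CKO, against 495 of 578. Other family genes called were 0, against 10 with array weights and 0 to 2 with a library left out (Plxnb1 without CKO replicate 4, Sema3f and Sema6a without control replicate 1). Partner genes called were 1, against 2 with the 5 FPKM filter, 6 with quantile normalization, 29 with array weights, 0 to 8 with a library left out, and 0 each with median-of-ratios scaling, equal FPKM totals, the length trend removed, either covariate and the libraries without Y-linked RNA, where 16, 28, 11, 4, 11 and 4 genes had an unadjusted p under 0.05 by limma.

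Members kept their sign in every alternative except that Sema3a (0.19) and Sema4c (0.046) turned positive within the libraries without Y-linked RNA. Pcsk6, Itgb1 and Rhoa turned to 0.049, 0.20 and 0.17 there. Sema4b turned to 0.040 with the length trend removed and 0.50 with array weights. With a library left out, log2 fold changes ran from -0.29 to 0.15 for Sema4b, -0.52 to 0.032 for Itgb1, -0.25 to 0.052 for Rhoa and -0.48 to 0.043 for Mmp14. Without CKO replicate 4, Itgb1, Rhoa and Sema4b turned positive, without CKO replicate 3 Mmp14 and Sema4b, and without control replicate 1 Sema4b. Tyrobp turned to -0.10 with the length trend removed, Cfl1 to -0.36 with quantile normalization, and Mmp14 to 0.17 and 0.38 with the marrow and Y-linked covariates. The causes were not tested. Deviations of same-numbered libraries of the genotypes correlated at -0.03, 0.23, -0.26 and 0.43 for replicates 1 to 4. For replicates 2 and 4 the same number was the best match. These values do not settle whether the numbers pair the libraries, and the replicate block is not taken as a pairing. Under that block Farp2 stayed called (limma adjusted p = 0.0466). The block left 0 of the 4 calls among the members and 1 (Slit2) of the 4 among SLIT, ROBO and netrin genes. Depth is unknown, and 4 libraries a group limit precision.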
